A study of Mus musculus with 14 samples.

Results

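The genes described here encode the proteins of the cytosolic ribosome. They were chosen by name alone, as every entry called Rpl or Rps with a number (with the endings a, x, l, l1 or al), Rplp0 to Rplp2, or Rpsa, which leaves out the S6 kinases and the entries named as pseudogenes. The rule found 81 genes, 49 of the large and 32 of the small subunit, in each of 2 deposited tables that list 16821 and 16095 genes. RNA sequencing had measured gene expression in hepatocellular carcinomas of the mouse, liver tumours that MYC drives and in which a single target was cut with Cas9 and a guide RNA. The first table holds 3 tumours with a guide against Cul3 (sgCul3), 3 with a guide against Keap1 (sgKeap1) and 4 with a guide against GFP (sgGFP), the control. The second holds 2 tumours with a guide against the KEAP1-binding ETGE motif of NRF2 (sgNrf2) and 2 control libraries. Per the labels, control A is a repeat of sgGFP tumour 2 and control B one of sgGFP tumour 4. All tumours share the MYC driver. The labels give no age or strain, and do not say how MYC and Cas9 were delivered, how many guides were used for a target, or whether tumours came from separate animals, so that p-values measure the spread between these tumours only.

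Ribosomal proteins are made in equal numbers, with ribosomal RNA, into a small subunit that decodes mRNA and a large subunit that joins amino acids. Their mRNAs are among the most abundant of a growing cell, and most begin with a run of pyrimidines, the 5′ terminal oligopyrimidine tract, through which mTOR sets their translation. MYC is a known activator of ribosomal protein genes. KEAP1 is the adaptor that presents NRF2 to the CUL3 ubiquitin ligase, so loss of KEAP1 or CUL3, or of the motif in NRF2 that KEAP1 holds, lets NRF2 build up. Many mouse ribosomal protein genes have processed pseudogenes of near-identical sequence.

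Between 6333025 and 12008223 reads lay on genes in libraries of the first table, and between 17819333 and 20848578 in those of the second. Levels are scaled counts, that is, reads per gene divided by a factor for the library, and the tables were scaled separately. The targeted gene Cul3 read 163, 426 and 676 in sgCul3 tumours, against 1372, 1247, 1202 and 935 in sgGFP tumours, and Keap1 read 462, 414 and 287 in sgKeap1 tumours, against 599, 582, 707 and 721 in sgGFP tumours. The level of Nfe2l2, the gene of NRF2, does not check a cut of its motif, and read 1486 and 1615 in sgNrf2 tumours, against 1844 and 1397 in controls. Of 28 genes of the NRF2 core list, 17 were called higher in sgCul3, 22 in sgKeap1 and 14 in sgNrf2 tumours. The shares of all genes called higher were 1.35%, 4.45% and 1.90% in that order. The list's median log2 fold changes were 2.07, 2.59 and 2.83. Myc was not called in any comparison (log2 fold changes between -0.75 and 0.15, limma adjusted p of 0.33 to 0.93). It read 2277, 3066 and 3063.5 in sgCul3 tumours, against 6758, 3711.5, 4707 and 4060.5 in sgGFP tumours. All sgCul3 tumours thus lay below all sgGFP tumours, as in 7.54% of all genes. In sgKeap1 tumours Myc read 6146, 1018 and 4661. It read 6756 and 7475 in sgNrf2 tumours, against 9034.5 and 6046 in controls. All 8 hepatocyte markers, such as Alb, were detected in every library, and sgKeap1 tumour 2 stood apart with a summed marker level of 1213700, while the other 9 first-table libraries ranged between 115340 and 338380.

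The 81 genes took up a smaller share of the reads on genes in sgNrf2 tumours than in their controls, a description without a test. They held 1.63% and 1.80% of the reads on genes in sgNrf2 tumours A and B, against 3.31% and 2.66% in control libraries A and B. The small subunit held 0.674% and 0.730% in sgNrf2 tumours and 1.52% and 1.19% in controls, and the large subunit 0.955% and 1.07% in sgNrf2 tumours and 1.79% and 1.47% in controls. In the first table the shares overlapped between the groups. They were 3.55%, 3.58% and 2.71% in sgCul3 tumours, 3.15%, 1.99% and 3.41% in sgKeap1 tumours, and 2.82%, 3.29%, 2.51% and 3.08% in sgGFP tumours. The lowest share of that table belonged to sgKeap1 tumour 2.

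**Figure D1:**
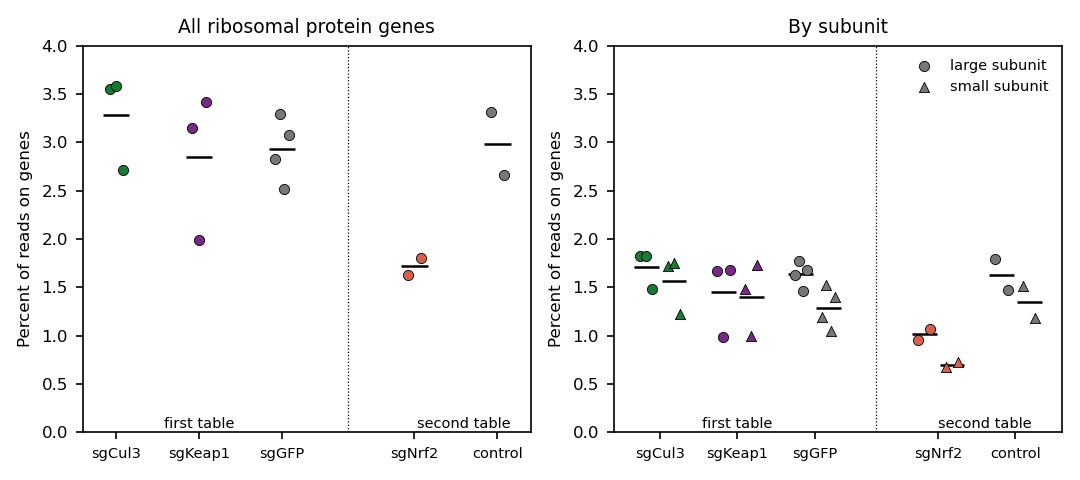
Percent of reads on genes held by the 81 ribosomal protein genes in every library (left) and by the large and the small subunit (right). Points are libraries, bars are group means, and the dotted line parts the tables. Both sgNrf2 tumours, at 1.63% and 1.80%, lie below both controls, while sgCul3, sgKeap1 and sgGFP tumours overlap.

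The measured level of a member went with how much of its sequence is its own. Each coding sequence was cut into every stretch of 50 bases, and each stretch was looked up in all other transcripts of GENCODE M21. Among the highest levels in sgGFP tumours were those of the stalk protein gene Rplp1 and of Rpl13a. Rplp1 had 40108 scaled counts per kb of coding sequence and 60.4% of its stretches shared. Rpl13a had 31583 scaled counts per kb and 97.5% of its stretches shared, so a high level also occurred with most stretches shared. At the other end stood Rps12 (6.48 per kb), Rpl24 (31.2 per kb) and Rps6 (34.5 per kb), all with 100% of their stretches in other genes or pseudogenes. Rps12 had 0 to 7 reads in each library of the first table. Among these, sgGFP tumour 2 had 0 reads, which allows a level of up to 0.250 CPM. Rps12 was not tested for lack of reads. The 12 coding members with under 50% shared stretches had a median of 18158 per kb and made up 47.2% of the members' summed level in sgGFP tumours, while the 30 members with every stretch shared had a median of 346 per kb and made up 3.96%. Across 80 coding members less Rps12, the level per kb and the shared percentage had a Spearman rho of -0.82 (n = 79 genes of the same libraries, a description). Whether reads of shared sequence were lost in the counting was not tested.

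**Figure D2:**
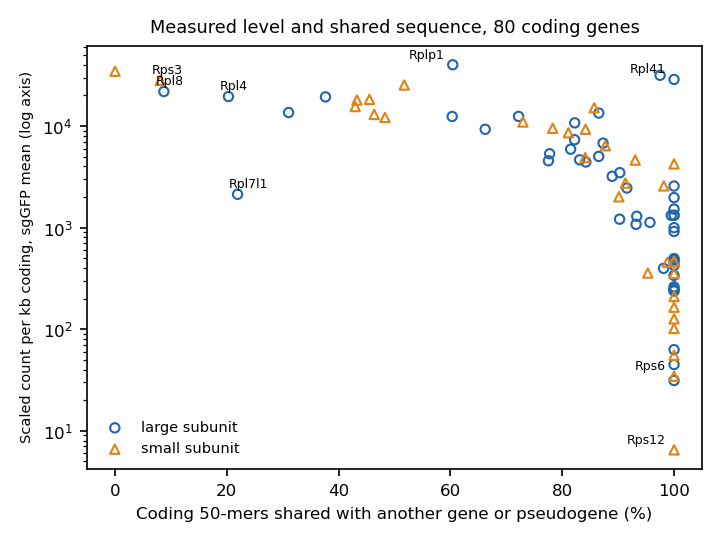
Mean scaled count per kb of coding sequence in sgGFP tumours (log axis) against the percentage of coding 50-base stretches that another gene or pseudogene also holds, for the 80 coding members. Rplp1, with 60.4% shared, reads 40108 per kb and Rps12, with 100% shared, reads 6.48. Rpl41, whose coding sequence has only 26 such stretches, lies high at 100%.

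Promoters are shown for members that lie at the ends of the changes described next. Rps28, Rps18 and Rpl34 had the largest falls among members called in sgNrf2 tumours. Rpl15 and Rpl4 did not move with them, and Rps6 and Rps4x had the lowest values in sgKeap1 tumours. Each stretch runs from 45 bases before to 20 bases from the annotated start (RefSeq, GRCm38.p6), 5′ to 3′ on the strand of the gene, and capitals mark the longest pyrimidine run that reaches within 15 bases of the start.
Rps28, chr17:33824543-33824607, minus strand: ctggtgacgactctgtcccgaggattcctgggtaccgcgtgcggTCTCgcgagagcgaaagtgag
Rps18, chr17:33955646-33955710, minus strand: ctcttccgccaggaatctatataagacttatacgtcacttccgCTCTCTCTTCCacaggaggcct
Rpl34, chr3:130730318-130730382, minus strand: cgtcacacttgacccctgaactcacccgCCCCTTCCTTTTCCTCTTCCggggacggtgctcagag
Rpl15, chr14:18270967-18271031, minus strand: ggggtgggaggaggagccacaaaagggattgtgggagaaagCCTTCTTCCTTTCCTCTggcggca
Rpl4, chr9:64173342-64173406, plus strand: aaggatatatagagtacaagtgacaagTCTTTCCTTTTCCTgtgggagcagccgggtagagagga
Rps6, chr4:86857348-86857412, minus strand: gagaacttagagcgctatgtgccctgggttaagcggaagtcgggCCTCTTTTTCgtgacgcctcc
Rps4x, chrX:102189372-102189436, minus strand: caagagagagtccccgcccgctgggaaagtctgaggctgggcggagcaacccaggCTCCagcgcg
The runs are 4, 11, 20, 17, 14, 10 and 4 bases long in that order, so long runs occur both in members that fell and in those that did not. RefSeq's promoter table holds 60 of the 81 members by symbol. A pyrimidine run of at least 8 bases in that position was present in 51.7% of these 60, against 20.4% of 27025 genes. Over the whole window of 250 bases before to 50 after the start, on both strands, CCGGAAG, a motif of ETS factors, was present in 24 of 60 members, against 9.93% of genes. The MYC motif CACGTG was present in 6 members, against 8.09% of genes, and TGACNNNGC, the core of the element bound by NRF2, in 12 members, against 13.99% of genes. A match describes these letters and is not shown to be a site in use.

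In sgNrf2 tumours most ribosomal protein mRNAs were lower than in controls. Of 80 members tested, 20 were called lower (against 2.51% of all 13989 genes tested) and 0 higher (against 1.90% of genes), with limma and Benjamini-Hochberg adjustment at 0.05. In 77 of 80 the log2 fold change was negative, and in 71 both sgNrf2 tumours lay below both controls, an arrangement seen in 30.7% of all genes. The reverse arrangement was seen in 0 members and in 33.3% of genes. The median log2 fold change was -1.26 over members and 0.04 over all genes. The small subunit had 10 of 31 members called lower (median -1.36) and the large subunit 10 of 49 (median -1.17).

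Among the calls of the small subunit, Rps28, one of its shortest proteins, read 732 and 753 in sgNrf2 tumours, against 2564 and 3399 in controls. The fall was 3.97-fold (log2 fold change -1.99, SE 0.21, limma adjusted p = 0.0337), and the groups lay well apart. Rps18, in the head of the small subunit, read 2101 and 2373 in sgNrf2 tumours, against 7719 and 9859 in controls (log2 fold change -1.97, SE 0.21, limma adjusted p = 0.0337). Rps14, on the platform of the small subunit and lost in a human bone marrow disease of the 5q deletion, read 6414 and 7315 in sgNrf2 tumours, against 23723 and 28501 in controls (log2 fold change -1.92). Rps10 read 1009 and 1326 in sgNrf2 tumours, against 4064 and 4025 in controls (log2 fold change -1.80). In all 4 genes the lower control was more than double the higher sgNrf2 tumour. Rpsa, also known as the laminin receptor precursor, read 263 and 254 in sgNrf2 tumours, against 718 and 987 in controls (log2 fold change -1.70). Rps13, Rps21, Rps24, Rps26 and Rps27l were the other small subunit members called, with log2 fold changes of -1.90 to -1.49.

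The large subunit calls were of like size. Rpl34 read 3216 and 3709.6 in sgNrf2 tumours, against 11965 and 14913 in controls (log2 fold change -1.95, SE 0.21, limma adjusted p = 0.0338). Rpl37a, a zinc-binding protein, had the smallest adjusted p of all members (0.0299, limma) at a log2 fold change of -1.73 (SE 0.17). Rpl13a, which in human cells also leaves the ribosome to silence inflammatory mRNAs, read 13770 and 14463 in sgNrf2 tumours, against 47792 and 44238 in controls (log2 fold change -1.70). Rpl11, which can bind MDM2 and so stabilise p53, read 144 and 175 in sgNrf2 tumours, against 452 and 514 in controls (log2 fold change -1.60). Rpl26, Rpl9, Rpl35a, Rpl32, Rpl12 and Rpl10a were the others called (log2 fold changes -1.71 to -1.48). The lowest fold changes of all missed the threshold. Rpl17 read 126 and 118 in sgNrf2 tumours, against 363 and 914 in controls (log2 fold change -2.23, SE 0.49, limma adjusted p = 0.068), and Rpl39 read 1565 and 1695 in sgNrf2 tumours, against 4764 and 9960.3 in controls (log2 fold change -2.08, SE 0.38, limma adjusted p = 0.053). Rps27 and Rps16, with 13 to 61 reads in each library, had values of -2.06 and -2.04 and were not called.

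Some members did not move with the rest. Rpl4, which lines the exit tunnel, read 41291 and 46272 in sgNrf2 tumours, against 58064 and 46649 in controls (log2 fold change -0.25, SE 0.30). Rps4x, the small subunit protein encoded on the X chromosome, read 3630.2 and 3550.5 in sgNrf2 tumours, against 3675 and 2231 in controls (log2 fold change 0.33, SE 0.28). Rpl7 read 7653 and 8306 in sgNrf2 tumours, against 9816 and 6775 in controls, and Rpl15 read 1363 and 1455 in sgNrf2 tumours, against 1058 and 2129 in controls. The values of these last 3 genes overlapped between the groups. Rpl7a, Rpl7l1, Rps4l and Rpl6 also had log2 fold changes between -0.31 and 0.04.

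**Figure D3:**
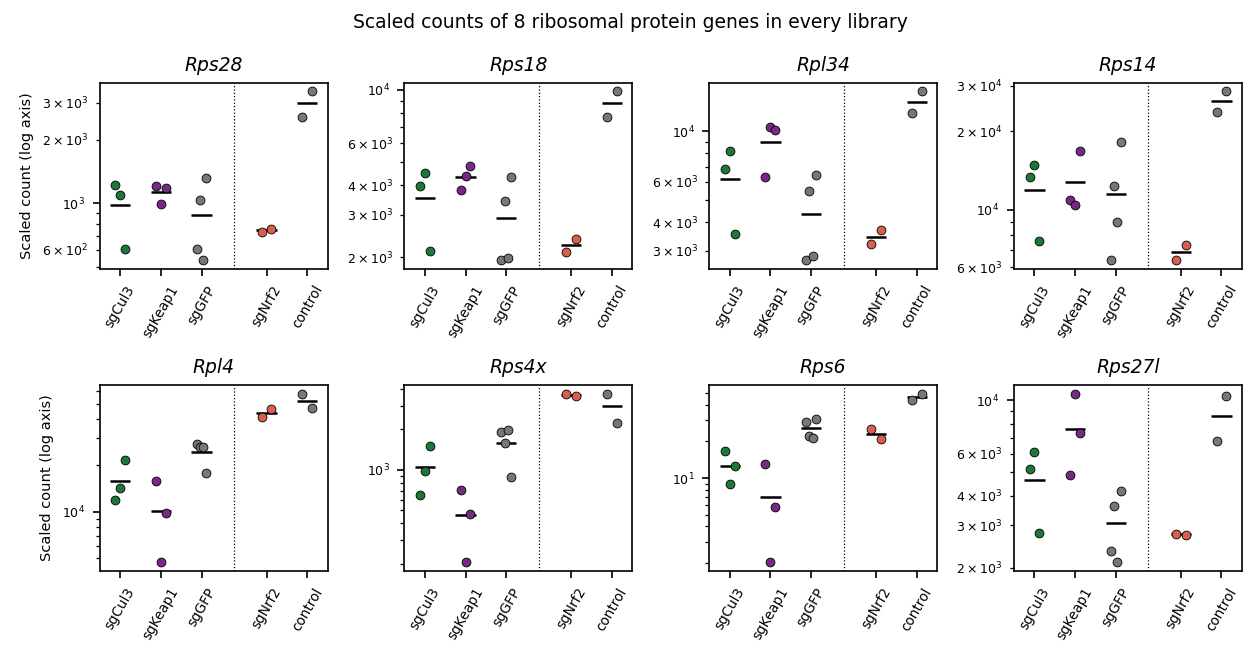
Scaled counts (log axis) of 8 ribosomal protein genes in every library, with group means as bars. The dotted line parts the tables, which were scaled separately. Rps28, Rps18, Rpl34, Rps14 and Rps27l are lower in both sgNrf2 tumours than in both controls. Rpl4, Rps4x and Rps6 are lower in all 3 sgKeap1 tumours than in all 4 sgGFP tumours.

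Several measures moved with this difference. Members with short coding sequences lay lowest. The 18 members with under 350 coding bases had a median log2 fold change of -1.55 in sgNrf2 tumours, the 47 with 350 to under 700 bases one of -1.37, and the 14 with at least 700 bases one of -0.45. All genes tested showed the same order at smaller size, with medians of -0.70, -0.25 and 0.17. After the trend of all genes with coding length was taken out of each library, the members' median was -0.92 and 3 of 79 members, Rps18, Rps10 and Rpl37a, were called lower. Leaving out either sgNrf2 tumour left 0 members called lower, while leaving out control A or B left 44 and 17, with medians of -1.35 to -1.13 throughout. Entries for alignments to several places, where reads of shared sequence fall, made up 44.99% and 46.4% of all entries in sgNrf2 tumours and 56.8% and 58.0% in controls. The 12 members with under 50% shared stretches had a median of -1.03 with 11 negative, and the 29 with all stretches shared one of -1.31. Of 11 erythroid markers 9 were called lower in sgNrf2 tumours, with summed levels of 966 and 1990.3 in sgNrf2 tumours, against 17568 and 19460 in controls, and none at 0. Of 13 neutrophil markers tested 4 were called lower, with sums of 237 and 676 in sgNrf2 tumours, against 11344 and 5375 in controls. In sgNrf2 tumour A, 1 of the 14 listed, Mpo, was at 0. Of 8 hepatocyte markers 0 were called (median log2 fold change -0.53, 6 negative). Their sums were 325670 and 407120 in sgNrf2 tumours, against 453730 and 729900 in controls. Markers of some other cell types lay higher. Endothelial markers summed to 2599 and 2852 in sgNrf2 tumours, against 1457 and 1521 in controls (1 of 8 called higher), and fibroblast and stellate markers to 5703 and 4022.5 in sgNrf2 tumours, against 2652 and 3067 in controls (1 of 9 called higher). Of 6 cholangiocyte markers tested 0 were called (median log2 fold change 2.11, overlapping sums), and of 11 macrophage and Kupffer cell markers tested 2 were called lower, Marco and Clec4f, with overlapping sums. In bulk tissue, fewer cells of a type and less RNA per cell cannot be told apart. The part of these measures in the result was not tested.

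The tumours behind the controls lay above the other sgGFP tumours in most members, by their means in the first table. There, the mean log2 level of sgGFP tumours 2 and 4, of which controls A and B are repeats, exceeded that of tumours 1 and 3 in 71 of 80 members. The median log2 difference was 0.62. The same count was not taken over all genes, so the difference is not shown to be particular to the members.

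In sgKeap1 tumours ribosomal protein mRNAs did not move as a body, and single members lay at both ends. Of 80 members tested, 3 were called lower (3.75%, against 3.37% of all 13045 genes tested) and 0 higher (against 4.45% of genes), a share near that of all genes. At an unadjusted p under 0.05, 13 of 80 members were higher and 11 lower, against 1938 and 1869 of the 13045 genes. The median log2 fold change was 0.33 over members and -0.01 over all genes. The members' median was 0.19 with quantile normalization, 0.13 with equal totals (all genes -0.20) and 0.04 with the trend with coding length taken out. All sgKeap1 tumours lay above all sgGFP tumours in 10 members, and below them in 9, against 13.1% and 12.6% of all genes.

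The genes that fell in sgKeap1 tumours have long coding sequences. Rps4x read 704, 205 and 465 in sgKeap1 tumours, against 1909, 1572, 1981 and 879.8 in sgGFP tumours. This was a 3.71-fold fall (log2 fold change -1.89, SE 0.44, limma adjusted p = 0.0277). Rps6, the substrate of the S6 kinases, read 13.1, 2.03 and 5.77 in sgKeap1 tumours, against 29.0, 22.2, 21.3 and 30.4 in sgGFP tumours (log2 fold change -1.82, SE 0.48, limma adjusted p = 0.0452). These are counts of 16, 1 and 4 reads in sgKeap1 tumours and 43, 29, 24 and 34 in sgGFP tumours. Rpl3, near the peptidyl transferase centre, read 764, 294 and 828 in sgKeap1 tumours, against 1374, 1573, 1422 and 1069.5 in sgGFP tumours (log2 fold change -1.23, SE 0.34, limma adjusted p = 0.0497). In each of the 3 genes the lowest value was that of sgKeap1 tumour 2. None of the 3 was called once sgGFP tumour 1, 2 or 3 or sgKeap1 tumour 2 or 3 was left out, and without sgKeap1 tumour 2 their log2 fold changes were -1.40, -1.34 and -0.76. With edgeR's quasi-likelihood test on the recovered reads Rps4x alone was called lower. Of 13 neutrophil markers 9 were called lower in sgKeap1 tumours, with summed levels of 273, 180.4 and 241 in sgKeap1 tumours, against 1754, 5350.2, 881 and 2023 in sgGFP tumours. Of 11 erythroid markers 7 were called lower, with sums of 2176, 2106 and 1971 in sgKeap1 tumours, against 5088, 8585, 12801 and 15141 in sgGFP tumours. Of 6 cholangiocyte markers 2 were called higher, with sums of 1854, 1149 and 658 in sgKeap1 tumours, against 453, 489, 310.0 and 284 in sgGFP tumours, and of 8 endothelial markers 1, Vwf, was called lower, with overlapping sums. Ctsg and Rhag, of the neutrophil and erythroid lists, had 0 reads in all 3 sgKeap1 tumours. Their part in the members' values was not tested.

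Other members lay just outside the threshold. Rpl4 read 15814, 4711 and 9821 in sgKeap1 tumours, against 27527, 26299, 26352 and 17924 in sgGFP tumours (log2 fold change -1.42, SE 0.41, limma adjusted p = 0.0563). Rpl7 and the stalk base Rplp0 had log2 fold changes of -1.47 (limma adjusted p = 0.0509) and -1.07 (limma adjusted p = 0.0602). At the high end, Rps27l, a paralogue of Rps27 that p53 induces in human cells, read 4874, 10676 and 7343 in sgKeap1 tumours, against 2353, 3629, 2103 and 4180.4 in sgGFP tumours (log2 fold change 1.30, SE 0.36, limma adjusted p = 0.0525). Rpl19 read 54.8, 81.1 and 57.7 in sgKeap1 tumours, against 24.3, 33.0, 13.3 and 34.9 in sgGFP tumours (log2 fold change 1.29, SE 0.41, limma adjusted p = 0.0759). Rps19, the gene most often mutated in human Diamond-Blackfan anaemia, read 5622, 8114 and 8121 in sgKeap1 tumours, against 2585, 4418, 2875 and 5049 in sgGFP tumours (log2 fold change 1.001, SE 0.34, limma adjusted p = 0.0869). In these 3 genes all sgKeap1 tumours lay above all sgGFP tumours. Rpl39 and Rpl34 had log2 fold changes of 1.16 and 1.10 (limma adjusted p = 0.0966 for both), with overlapping groups.

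**Figure D4:**
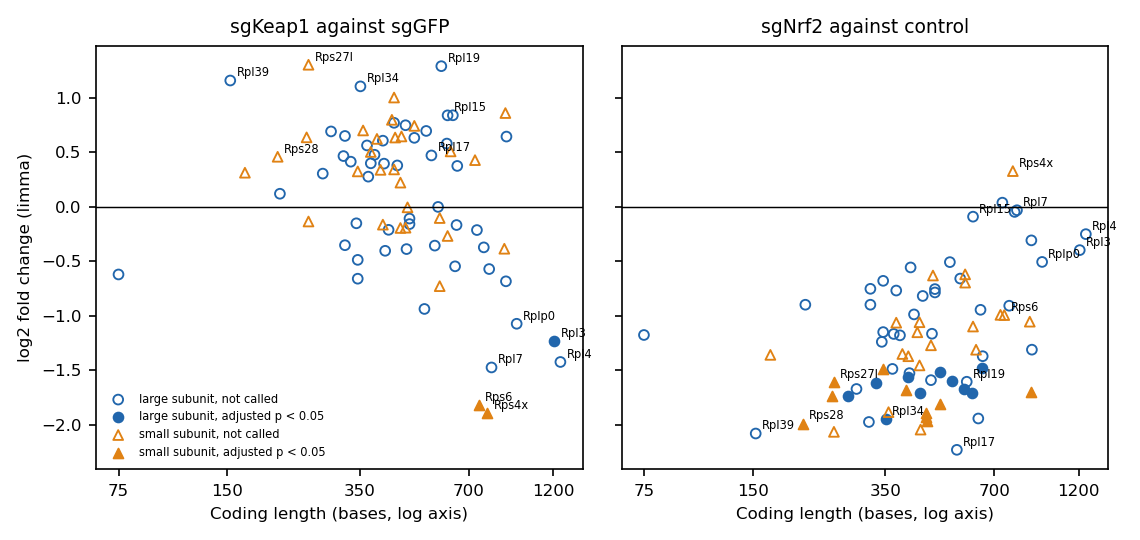
Log2 fold change of each coding member (limma) against its coding length (log axis) in sgKeap1 against sgGFP tumours (left) and sgNrf2 tumours against controls (right). Filled symbols are members with an adjusted p under 0.05, circles the large and triangles the small subunit. Long members lie lowest in sgKeap1 tumours, where the 14 of at least 700 bases have a median of -0.63, and highest in sgNrf2 tumours, where the same members have a median of -0.45.

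The order by coding length ran opposite ways in the sgKeap1 and sgNrf2 comparisons. In sgKeap1 tumours the 14 members of at least 700 coding bases had a median log2 fold change of -0.63, with 11 negative. The 47 of 350 to under 700 bases had one of 0.39, and the 18 of under 350 bases one of 0.32. All genes tested had medians of -0.06, 0.24 and 0.38 in the same classes. Across 79 coding members the log2 fold change and log2 coding length had r = -0.37 in sgKeap1, r = -0.26 in sgCul3 and r = 0.43 in sgNrf2 tumours, as descriptions over genes that share libraries. The slope of all genes' log2 values on log2 coding length was -0.16, -0.26 and -0.19 in sgKeap1 tumours, against 0.00, -0.15, 0.02 and -0.09 in sgGFP tumours. In the second table it was 0.07 and 0.05 in sgNrf2 tumours, against -0.15 and -0.14 in controls. With this trend taken out, 5 members were called lower in sgKeap1 tumours. They were Rps4x, Rps6, Rpl3, Rpl7 and Rpl41, the shortest member, with 75 coding bases. The part of length in these differences was not tested beyond this.

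In sgCul3 tumours no member was called. Of 80 tested, 0 were called higher (against 1.35% of genes) and 0 lower (against 0.851%) with limma. On the recovered reads edgeR and DESeq2 also called 0 members, against 246 and 926 genes. At an unadjusted p under 0.05, 1 was higher, Rpl19, and 0 were lower, against 1183 and 1058 of the 13045 genes tested. Rpl19 read 73.2, 54.1 and 29.7 in sgCul3 tumours and has its sgGFP values above (log2 fold change 0.93, SE 0.41, limma adjusted p = 0.28). Rps6 read 16.6, 8.86 and 12.5 in sgCul3 tumours, all below every sgGFP tumour (log2 fold change -0.94, SE 0.48, limma adjusted p = 0.35). It was the only member in which all 6 sgCul3 and sgKeap1 tumours lay below all 4 sgGFP tumours. In Rpl36a the sgCul3 tumours, at 52.5, 62.9 and 57.1, also lay below the sgGFP tumours, at 66.8, 69.0, 64.7 and 101, by a log2 fold change of -0.36 (SE 0.37). These 2 members make 2.5% of the 80, against 7.54% of all genes with sgCul3 tumours below sgGFP tumours. No member had all sgCul3 tumours above, against 8.71% of genes. The median over members was 0.18, and it was -0.00 to 0.40 when each tumour was left out in turn. It was 0.34 with same-numbered tumours paired, a setting that leaves out sgGFP tumour 4. With the trend with coding length taken out it was -0.01. Of the sgCul3 tumours, 1 and 2 lay above the sgGFP mean in the median member, by 0.31 and 0.43 on the log2 scale, and tumour 3 below it, by -0.25. Of 11 erythroid markers 5 were called lower in sgCul3 tumours (median log2 fold change -2.94), against 0.851% of all genes. Their sums were 1452, 11327 and 422 and overlapped those of sgGFP tumours. Of 8 endothelial markers 2 were called lower, and of 6 cholangiocyte markers 1 was called higher. The part of these markers in the members' values was not tested.

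With the mean of both guides set against sgGFP, limma called 0 members higher (against 4.37% of genes) and 0 lower (against 3.19%). At an unadjusted p under 0.05, 10 were higher and 7 lower, against 1857 and 1667 of the 13045 genes tested. With edgeR 0 members were called, against 1017 genes. DESeq2 called 3 members higher and 4 lower, against 2052 genes in either direction. All sgCul3 and sgKeap1 tumours lay below all sgGFP tumours in 1 member, Rps6 (against 4.10% of genes), and above them in 0 (against 5.13%). The lowest fold changes were those of Rps6 (log2 fold change -1.38), Rps4x (-1.25), Rpl4 (-1.04) and Rpl7 (-0.94). The highest were Rps4l (2.36), Rpl19 (1.11), Rps27l (0.95) and Rpl34 (0.81). Between sgKeap1 and sgCul3 tumours limma called 0 members higher and 0 lower (against 0.0307% of genes in each direction). At an unadjusted p under 0.05, 0 were higher and 6 lower, against 634 and 681 of the 13045 genes tested. Members called by edgeR and DESeq2 numbered 0, against 6 and 104 genes. All sgKeap1 tumours lay above all sgCul3 tumours in 3 members (against 7.52% of genes) and below them in 4 (against 8.24%). The largest difference down was that of Rps4x (log2 fold change -1.27, SE 0.47, limma adjusted p = 0.45). An effect called in sgKeap1 and not in sgCul3 tumours was thus not shown to differ between them.

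In the first table single tumours of a group differed from each other. The median member lay 0.41 and 0.23 above the sgGFP mean in sgGFP tumours 4 and 2, on the log2 scale, and at -0.30 and -0.27 in tumours 1 and 3. Over the 10 libraries of the first table, 57 of 80 members had a Pearson r above 0.5 with the mean of the other members. Among the rest, 9 had an r below 0. A like count was not taken over all genes, so a shared profile is not shown to be particular to the members. Most like the other members were Rpl37a (r = 0.96), Rps14 (r = 0.94) and Rps29 (r = 0.93), and least like them Rps4x (r = -0.41), Rpl4 (r = -0.34) and Rpl7 (r = -0.28). In sgKeap1 tumour 2 the median of the 14 members of at least 700 coding bases lay at -1.24 from the sgGFP mean, against -0.32 and -0.39 in sgKeap1 tumours 1 and 3, and the 18 shortest lay at 0.10. Rpl4 made up 1.80% of that tumour's member reads, against 5.42% and 2.95% in sgKeap1 tumours 1 and 3 and 5.56% to 12.4% in sgGFP tumours. The repeats kept part of the differences between members. The difference of sgGFP tumour 4 from tumour 2 and that of control B from control A had r = 0.44 over 80 members, a description of 2 tumours each sequenced again.

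**Figure D5:**
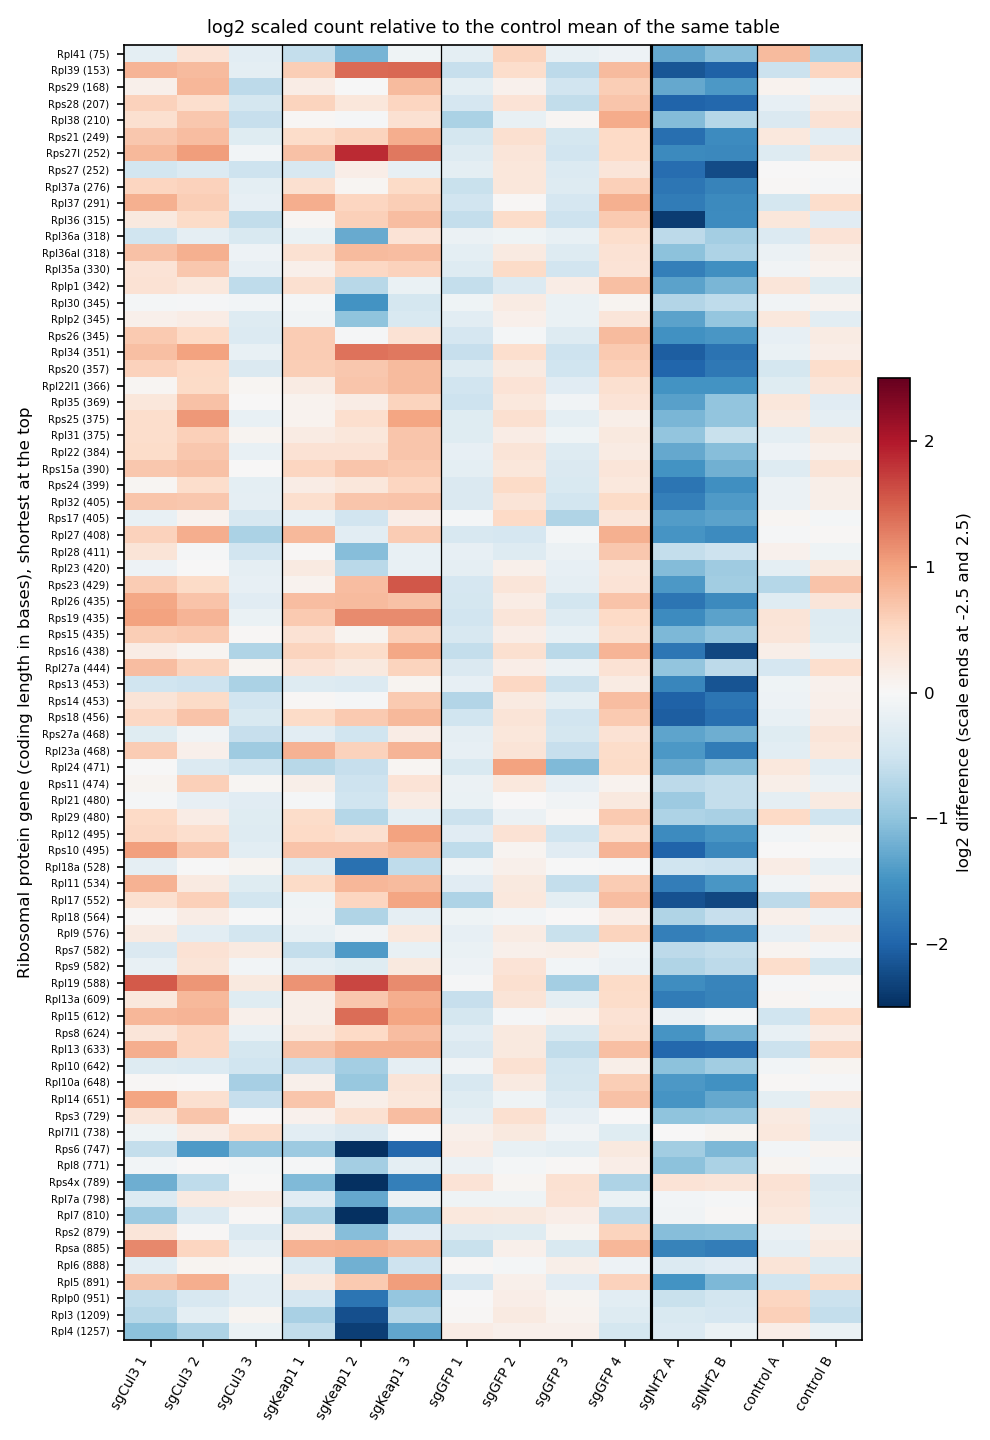
Log2 scaled count (plus 1) of coding members in every library, relative to the mean of the sgGFP tumours in the first table and of the controls in the second, with members ordered by coding length from the shortest at the top. The thick line parts the tables. Most rows are blue in both sgNrf2 tumours, save several long members near the foot, and sgKeap1 tumour 2 is darkest blue in long members such as Rpl4.

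The ratio of a member to its paralogue lay above every sgGFP tumour in at least 5 of the 6 guide tumours of the first table for 4 of 5 pairs. The log2 ratio of Rps27l to Rps27 was 8.08, 8.21 and 7.27 in sgCul3 tumours (mean 7.85, SD 0.51, n = 3) and 7.94, 8.51 and 8.34 in sgKeap1 tumours (mean 8.26, SD 0.29, n = 3), against 6.75, 6.84, 6.68 and 7.02 in sgGFP tumours (mean 6.82, SD 0.14, n = 4). All 6 guide tumours lay above all sgGFP tumours. In the second table it was 7.48 and 7.79 in sgNrf2 tumours and 6.86 and 7.50 in controls, with overlap. Rps27 itself had 13 to 40 reads in each library of the first table, and all of its 50-base stretches are shared. The ratio of Rpl7l1, a paralogue of Rpl7 that acts in ribosome assembly, to Rpl7 was -0.39, -0.68 and -0.79 in sgCul3 tumours and -0.68, 0.98 and -0.12 in sgKeap1 tumours, against -1.33, -1.19, -1.45 and -0.85 in sgGFP tumours, on the log2 scale. Here too the guide tumours lay above all sgGFP tumours, and in sgNrf2 tumours the ratio was -1.17 and -1.24, against -1.27 in both controls.

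The ratio of Rpl36al to Rpl36a was 4.27, 4.16 and 3.28 in sgCul3 tumours and 3.58, 5.08 and 3.47 in sgKeap1 tumours, against 2.93, 3.35, 2.90 and 2.96 in sgGFP tumours, on the log2 scale. The sgKeap1 tumours lay above the sgGFP tumours, and sgCul3 tumour 3 fell within the sgGFP range. Rpl36a had only 15 reads in sgKeap1 tumour 2 and 38 in sgCul3 tumour 1, and all 50-base stretches of both genes are shared. The ratio of Rpl22l1 to Rpl22, paralogues that in other mouse tissues regulate each other, overlapped between the groups of the first table, with means of -1.83 in sgCul3, -1.63 in sgKeap1 and -1.71 in sgGFP tumours. In the second table it was -1.68 and -1.90 in sgNrf2 tumours, against -1.67 and -1.29 in controls, without overlap but with sgNrf2 tumour A and control A close together. Rps4l, which GENCODE M21 annotates as a transcribed processed pseudogene of Rps4x type, read 13.8, 340.3 and 7.82 in sgCul3 tumours and 40.9, 203 and 372 in sgKeap1 tumours, against 29.7, 9.97, 7.97 and 9.84 in sgGFP tumours. High values thus occurred in 3 of the 6 guide tumours, sgCul3 tumour 2 and sgKeap1 tumours 2 and 3. The log2 ratio of Rps4l to Rps4x was -5.45, -1.52 and -7.42 in sgCul3 tumours and -4.07, -0.01 and -0.32 in sgKeap1 tumours, against -5.96, -7.16, -7.79 and -6.34 in sgGFP tumours, with sgCul3 tumour 3 alone inside the sgGFP range. The log2 fold change in sgKeap1 tumours was 3.35 (SE 1.12, limma adjusted p = 0.0829), and Rps4l read 16.2 and 26.2 in sgNrf2 tumours, against 30.2 and 13.9 in controls. Ratios are descriptions without a test.

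Genes of the ribosome with other names and genes of translation were read beside the members. Of 7 such ribosome genes tested, among them Gnb2l1 (the scaffold RACK1), Rps3a1 and Fau, 1 was called lower in sgNrf2 tumours (against 2.51% of all genes). The median log2 fold change was -0.93 and 7 of 7 were negative. Gnb2l1, a signalling scaffold on the small subunit, read 30124 and 30511 in sgNrf2 tumours, against 58902 and 56511 in controls, and Rps3a1 read 2127 and 2450.0 in sgNrf2 tumours, against 3804 and 4566 in controls. The gene called was Rps27rt, a retrotransposed copy of Rps27 (log2 fold change -3.02, SE 0.50, limma adjusted p = 0.047). In sgCul3 and sgKeap1 tumours 0 of the 7 were called.

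Of 75 genes of the mitochondrial ribosome tested, 7 were called lower in sgNrf2 tumours (against 2.51% of all genes tested) and 0 higher (against 1.90%). The median log2 fold change was -0.48, with 62 negative. Those called included Mrpl57 (-1.63), Mrpl33 (-1.39) and Mrpl24 (-1.28). In sgKeap1 tumours 2 of 74 were called higher, Mrpl14 (2.15) and Mrpl16 (0.79), and 0 lower, with a median of 0.26. In sgCul3 tumours 0 were called. Of 25 genes listed, beside the ribosomal proteins, for mRNAs with a pyrimidine tract, most of them of translation, 0 were called in sgNrf2 tumours (median -0.33) and 1 was called higher in sgKeap1 tumours, Vim, which encodes the filament protein vimentin (1.14, median of the list -0.43). Of 51 genes of ribosomal RNA transcription and subunit assembly, 1 was called lower in sgNrf2 tumours, Taf1d (-1.33), and the median was -0.02. In sgKeap1 tumours 1 was called higher, Emg1 (0.88). Of 37 initiation and elongation factors, 0 were called in sgNrf2 tumours and 2 were called higher in sgKeap1 tumours, Eif2s3x (1.40) and Eef1e1 (1.07). Of 34 genes of mTOR and S6 kinase signalling, 0 were called in sgNrf2 tumours, and in sgKeap1 tumours Rheb, the activator of mTOR, was called higher (0.57) and Sesn1, an inhibitor, lower (-1.22). In sgKeap1 tumours these lists held 0 to 2 calls each way, and with 4.45% of all genes called higher and 3.37% lower, such counts are near or below the share of all genes. In sgNrf2 tumours the lists after the mitochondrial ribosome held 0 or 1 call each, also near or below the share of all genes.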

How the data were processed

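Tumour RNA was extracted with a Qiagen kit and made into libraries with version 2 of the Illumina TruSeq RNA kit, per the labels' protocols. Each deposited value is a scaled signal. The submitters' processing notes name HTSeq, DESeq, Picard and mm10, and per the labels the tables hold gene counts scaled by DESeq. No source used here gives the aligner, the annotation release or versions. The authors' first table holds 1 more than the scaled count in every cell. With that removed, all values were whole multiples of a step per library (within 0.1 reads), which gave back the reads. Between 6333025 and 20848578 reads a library lay on genes. The limit a count of 0 allows (3 reads) covers counting error only.

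Genes averaging 10 or more in deposited value (13045 and 13989) entered limma 3.58.1 (R 4.3.3, two-sided, mean-variance trend) as log2(deposited value + 1). A Benjamini-Hochberg adjusted p under 0.05 was a call. First-table groups shared a spread. Fold changes are on this scale. Scripts were tested on simulated data. Coding lengths and 50-base stretches are those of GENCODE M21 (GRCm38), which holds all 81 members.

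The members, gene lists and tests were chosen with earlier results of these data known. Named are targeted genes, paralogue pairs, members called (at most 20), the 4 highest and 4 lowest fold changes of a comparison, the 3 highest and lowest levels per kb, members apart in both guide groups, the 3 most and least like the mean profile, and up to 3 genes of a list. Some items that this rule names are not reported here. Others (such as Rps19, Rplp0, Rpl7a and Rpl36a) were picked after their values were seen. The alternatives tried were another pseudocount (5), no filter or a stricter one (50), quantile normalization, equal totals with and without members, edgeR 4.0.16 and DESeq2 1.42.0 on the reads, a replicate block, groups fitted alone and leaving each library out. Taking out the added 1 and the trend with coding length came after seeing the data. Deviations of same-numbered sgCul3 and sgGFP tumours correlated at 0.221, 0.228 and 0.243, above all differently numbered pairs of these groups (-0.298 to 0.097). However, sgKeap1 tumour 3 and sgCul3 tumour 1 correlated at 0.264, so a pairing by number is not shown. The labels do not explain the numbers. Values reported are those of the fit without the block, and the block is an alternative.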

Additional observations from a re-analysis of the deposited data

Results flagged for a closer look

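In the 4 sgGFP tumours, 3 of the 35 members looked at, beside the members' share of reads, had a tumour far from the others by Dixon's gap over range at its 95% limit. Chance flags about 1 in 20 such groups. Rpl4 read 17924 in tumour 4, against 26299 to 27527 in the other sgGFP tumours (gap over range 0.872). Rpl7 read 2275 in tumour 4, against 3994 to 4267 (0.863). Rps4l read 29.7 in tumour 1, against 7.97 to 9.97 (0.908).

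The sgKeap1 and sgNrf2 comparisons moved apart. In the median member, sgKeap1 tumours 1, 2 and 3 lay 0.147, 0.0676 and 0.539 above the sgGFP mean on the log2 scale, while sgNrf2 tumours A and B lay at -1.353 and -1.136 from the control mean. The difference between the comparisons was not tested. The controls are repeats of 2 of the sgGFP tumours, and sgGFP tumours themselves spread from -0.30 to 0.41.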

How the results depend on the processing

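No named member that was called changed sign under any alternative. In sgNrf2 tumours the 20 members called lower became 53 with DESeq2, 25 with a replicate block and 3 with the length trend removed, and 0 to 44 as each library was left out, when 0 to 1 were called higher. Leaving out a library there leaves a lone sample, which is assumed to vary like the other group. Their median of -1.26 became -0.95 with equal totals, -0.97 with equal totals without members and -0.92 with the length trend removed, and -1.35 to -1.13 as libraries were left out. Equal totals moved the median of all genes from 0.04 to 0.34. All genes called there, 617, became 972 with quantile normalization, 1236 with equal totals, 1129 with equal totals without members, 2651 with DESeq2, 193 with the length trend removed and 3 to 3383 as libraries were left out.

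In sgKeap1 tumours the 0 members called higher and 3 called lower became 5 and 7 with DESeq2, 8 and 5 with a replicate block and 1 and 1 with the groups fitted alone. Lower calls became 1 with a mean of at least 50, both kinds of equal totals and edgeR, and 5 with the length trend removed. They were 0 to 9, and the higher calls 0 to 3, as libraries were left out. Without sgKeap1 tumour 1 there were 3 higher and 9 lower, and without sgGFP tumour 4 there were 1 higher and 2 lower. The 1020 genes called became 2143 with DESeq2, 1769 with a replicate block and 319 to 1516 as libraries were left out.

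The members' median of 0.33 became 0.19 with quantile normalization, 0.13 with both kinds of equal totals and 0.04 with the length trend removed. It became 0.48 with a replicate block, a setting that leaves out sgGFP tumour 4.

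For both guides, the median of 0.27 became 0.45 with a replicate block and -0.01 with the length trend removed, and between sgKeap1 and sgCul3 tumours that of 0.11 became 0.00 with quantile normalization, -0.13 and -0.14 with equal totals with and without members, and 0.05 with the length trend removed. For both guides, members called higher and lower, 0 and 0, became 3 and 4 with DESeq2 and 2 and 1 with a replicate block, and 0 to 4 each as libraries were left out. The 986 genes called became 2052 with DESeq2 and 401 to 1550. In sgCul3 tumours the median of 0.18 became 0.34 with a replicate block and -0.01 with the length trend removed, and the 287 genes called became 162 with a mean of at least 50, 926 with DESeq2, 156 with the groups fitted alone and 68 to 327. Between sgKeap1 and sgCul3 tumours the 8 genes called became 104 with DESeq2, 0 with the groups fitted alone and 0 to 9. The mean share of reads became 1.91% in sgNrf2 tumours and 3.67% in controls outside the 10 genes with most reads, and 1.46% in sgNrf2 tumours without the top member. Apart from the medians with a replicate block, treated below, the cause of these shifts was not tested. Same-numbered sgKeap1 and sgGFP tumours did not deviate together in every pair (r = 0.208, 0.094 and -0.083), nor did every one correlate best with its own number. In that comparison the block thus uses a number the samples only share. With 2 libraries a group in the second table, deviations mirror each other, so both lettered pairs give the same value (r = -0.001). There the block uses a letter the samples only share. In the first table the block takes out sgGFP tumour 4, which has no partner. The groups left are of equal size, so the block itself changes no fold change. The medians with a replicate block are therefore those without that tumour. The block changed no call of a member in sgCul3 tumours, where 0 and 0 were called. Members with under 20 reads a library, such as Rps6, are limited by depth.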
